A study of Mus musculus with 7 samples.

Results

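The expression of 10 immediate early genes was followed across the cell classes of 7 control mammary tumors profiled by Drop-seq. They were taken by symbol, as Fos, Fosb, Jun, Junb, Jund, Egr1, Atf3, Ier2, Klf6 and Nr4a1, and are 10 of the 33710 genes listed in the matrices of unique molecular identifiers (UMIs), each UMI standing for 1 captured mRNA molecule. Each tumor came from a different mouse carrying MMTV-PyMT and the floxed HK2 f/f alleles, with the genotype labelled wild type, and was collected 3 months after a palpable tumor according to the labels. The MMTV promoter directs the polyoma middle T oncogene to the mammary epithelium. These C57BL/6 mice carried no Cre recombinase and, per the study's methods, also received tamoxifen, so the comparisons below are between cell classes and between tumors, not between treatments. The HK2-deleted tumors of the study are not analysed here. Replicates 1, 2, 3 and 4 carry CB in their titles, whereas 5, 7 and 8 carry WT, a difference that the labels leave unexplained. The tumors had been minced and digested with collagenase before capture, and no undissociated tissue was measured, so the state of these genes in the intact tumor cannot be told apart from their response to dissociation.

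Immediate early genes are transcribed within minutes of a stimulus from factors that are already present, and their mRNAs are short-lived. Growth factors, cytokines, stretch, heat and enzymatic tissue digestion are all known to induce them. Fos and Jun proteins pair through leucine zippers as the AP-1 transcription factor, Atf3 is a related leucine zipper factor that can pair with Jun proteins, Egr1, Klf6 and Nr4a1 bind DNA through zinc fingers, and feedback genes such as the phosphatase Dusp1 and the mRNA-decay factor Zfp36 end the response. In mammary tissue the same genes also respond to the growth factor signals that maintain the epithelium.

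Positions are given for 9 of the members on GRCm38 (mm10) with the GENCODE annotation. Fos lies on the plus strand of chromosome 12 from 85473890 to 85477273, Fosb on the minus strand of chromosome 7 from 19302696 to 19310051 and Jun on the minus strand of chromosome 4 from 95049034 to 95052222. Atf3 spans 191170296 to 191218039 on the minus strand of chromosome 1, Klf6 5861482 to 5870394 on the plus strand of chromosome 13 and Nr4a1 101254269 to 101274795 on the plus strand of chromosome 15. Junb, Jund and Ier2 all lie on chromosome 8, at 84974484 to 84978718 (minus), 70698949 to 70700616 (plus) and 84661331 to 84662852 (minus). Exons of Junos overlap Jun, exons of Prdx2 overlap Junb and exons of Gm11175 overlap Jund, each on the other strand. Whether the counting used strand is not given in the sources used here, so reads of these pairs may not have been separated.

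Promoters are shown for 5 members that were higher in the same tumor cells as Fos or, for Fos, chose those cells, as the 120 bases before the annotated start (RefSeq, GRCm38.p6, in the sense of the mRNA, 5′ to 3′). Capitals mark TGACG, the core of the cAMP response element, on either strand (CGTCA on the other), and the TATA box TATAAA. 
Fos (chr12:85473770-85473889, plus): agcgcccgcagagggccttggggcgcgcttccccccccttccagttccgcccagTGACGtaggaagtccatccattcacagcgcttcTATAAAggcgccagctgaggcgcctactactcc
Fosb (chr7:19310046-19310165, minus): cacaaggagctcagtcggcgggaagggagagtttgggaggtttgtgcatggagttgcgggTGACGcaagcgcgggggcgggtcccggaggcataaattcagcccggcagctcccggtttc
Junb (chr8:84978749-84978868, minus): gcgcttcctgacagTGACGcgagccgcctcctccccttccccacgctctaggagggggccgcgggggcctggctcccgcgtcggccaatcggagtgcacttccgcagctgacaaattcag
Atf3 (chr1:191183334-191183453, minus): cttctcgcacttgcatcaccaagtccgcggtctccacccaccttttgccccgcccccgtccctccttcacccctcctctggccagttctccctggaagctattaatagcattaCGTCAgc
Jun (chr4:95052223-95052342, minus): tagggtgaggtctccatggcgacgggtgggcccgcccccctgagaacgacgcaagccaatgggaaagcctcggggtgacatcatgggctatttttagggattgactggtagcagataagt
Motifs were searched in the 250 bases before the start for the 8 members that matched the promoter table. The start used lies well inside the GENCODE span given above for Atf3 and Nr4a1, and before it for Jund. TGACG was present in 5 of them (Fos, Fosb, Junb, Atf3 and Nr4a1), against 17.8% of all 32851 promoters, and GGGCGG, the GC box, in 6 against 32.7%. TATAAA was present in Fos alone of the 8, against 12.4% of all promoters. The full element TGACGTCA, which contains TGACG, was in none of the 8 and in 1.55% of all promoters. The AP-1 site TGAGTCA and the CArG box, the site of serum response factor, were in none of the 8 and in 4.46% and 1.47% of all promoters. These matches are a description of letters in a short window. Sites farther upstream were not searched, and no promoter was searched for Egr1 and Ier2.

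The matrices held 37000 barcodes, of which the 15047 with 200 to 6000 genes were kept as cells, 1133 to 4780 per mouse with a median of 362 to 467 genes. Clusters were named from marker lists, with the 10 members and related early genes kept out of the clustering. The classes were tumor cells (6169, named from markers such as PYMT and Csn3), hormone-sensing epithelium (1710), myoepithelium (285), fibroblasts (1022), endothelium (143), macrophages (2635) and T/NK cells (2209). The macrophages include a cluster of 858 cells led by Retnla, Ccl6 and Cfp with 1 macrophage marker among its 10 leading genes. The like cluster stayed unnamed, nearest to the dendritic list, at resolution 1.0 and with the members kept in the clustering. In both of these settings 9 of 10 members passed in macrophages, beside 50.8 and 49.2% of all genes. Replicate 4 held 1012 of the hormone-sensing cells. In replicate 8, tumor cells numbered 141 and T/NK cells 27, the fewest of any mouse in both classes. A class entered a comparison in mice with at least 10 of its cells, 5 mice for myoepithelium, 3 for endothelium and 7 for the others. All 9 myoepithelial markers had a UMI in the myoepithelial cluster, 5 of them in at least 10% of its cells. They summed to 1188 to 9545 counts per 1000000 UMIs (CPM) per mouse, with a median of 4615. The macrophage markers there summed to 2547 to 9570 CPM, with a median of 6468. Its tumor-cell markers summed to 11567 to 46815 CPM, beside 41605 to 81862 in tumor cells. With classes set per cell, 21.4% of the myoepithelial cells kept their class, beside 39.9% of hormone-sensing and 96.2% of tumor cells. In the myoepithelial cluster 83.2% of the cells had UMIs of at least 2 markers of another class. In the hormone-sensing cluster the tumor-cell markers summed to 3034 to 15682 CPM and 48.7% of the cells had such UMIs. They summed to 348 to 7953 CPM in fibroblasts, 924 to 7164 in macrophages and 885 to 11508 in T/NK cells. The part of tumor-cell RNA in the results was not tested beyond leaving out such cells. The libraries shared 5 barcodes.

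Against tumor cells of the same mice, most members were lower in the immune classes and the pattern was mixed in the others. In T/NK cells 10 of 10 members passed the test, 9 lower and Junb higher, where 55% of 7556 genes passed (30% lower, 25% higher). In macrophages 9 of 10 were lower and Junb did not pass, where 52.1% of 9213 genes passed (28.7% lower, 23.4% higher). In fibroblasts Egr1 and Fosb were higher and Atf3, Klf6 and Jund lower, 5 of 10 beside 47.8% of 6907 genes (23.5% higher, 24.3% lower). In hormone-sensing cells Atf3 was higher and Egr1, Ier2 and Nr4a1 lower, 4 of 10 beside 30.9% of 10051 genes (14.6% higher, 16.2% lower). In myoepithelial cells Atf3, Klf6 and Jund were lower, 3 of 10 beside 25.6% of 3963 genes (13.9% higher, 11.7% lower). In endothelial cells Jund, Klf6, Atf3 and Ier2 were lower, 4 of 10 beside 30.2% of 2402 genes (13.2% lower, 17% higher), and of the genes called 56.4% were higher with edgeR and 68.5% with DESeq2. With both directions counted, the shares of members called in fibroblasts, hormone-sensing, myoepithelial and endothelial cells were near the shares of all genes. In the lower direction 9 of 10 members passed in macrophages and in T/NK cells, beside 28.7 and 30% of all genes. It was 3 of 10 in hormone-sensing and in myoepithelial cells, beside 16.2 and 11.7%, and 4 of 10 in endothelial cells, beside 13.2%. In fibroblasts 3 of 10 lay near the 24.3% of all genes. All 6 comparisons used the same tumor cells, so they are not independent of each other. Within the CB titles alone 4, 4, 5, 9 and 8 members passed in hormone-sensing, myoepithelial, fibroblast, macrophage and T/NK cells, beside 27.8, 9.66, 31.2, 38.8 and 40.8% of all genes. Within the WT titles alone they were 4, 2, 2, 8 and 6, beside 16.9, 11.2, 31.6, 42.4 and 35.2%. The genes were not all the same, since in hormone-sensing cells of the CB titles Jun passed as higher and Egr1 did not pass. The endothelial calls rest on 3 mice, of which 1 had a CB title. They were lost without replicate 4 and without replicate 5 (0 of 10 each), with DESeq2 (0 of 10, 2 at an unadjusted p under 0.05) and without the block for mouse in edgeR (0 of 10, none at an unadjusted p under 0.05). Beside the losses given with Fosb, Junb, Egr1 and Ier2, calls lost without the block were those of Ier2 in hormone-sensing cells (adjusted p = 0.13), Jund in myoepithelial cells (0.17), Atf3 and Nr4a1 in macrophages (0.10 and 0.15) and Nr4a1 in T/NK cells (0.068).

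**Figure D1:**
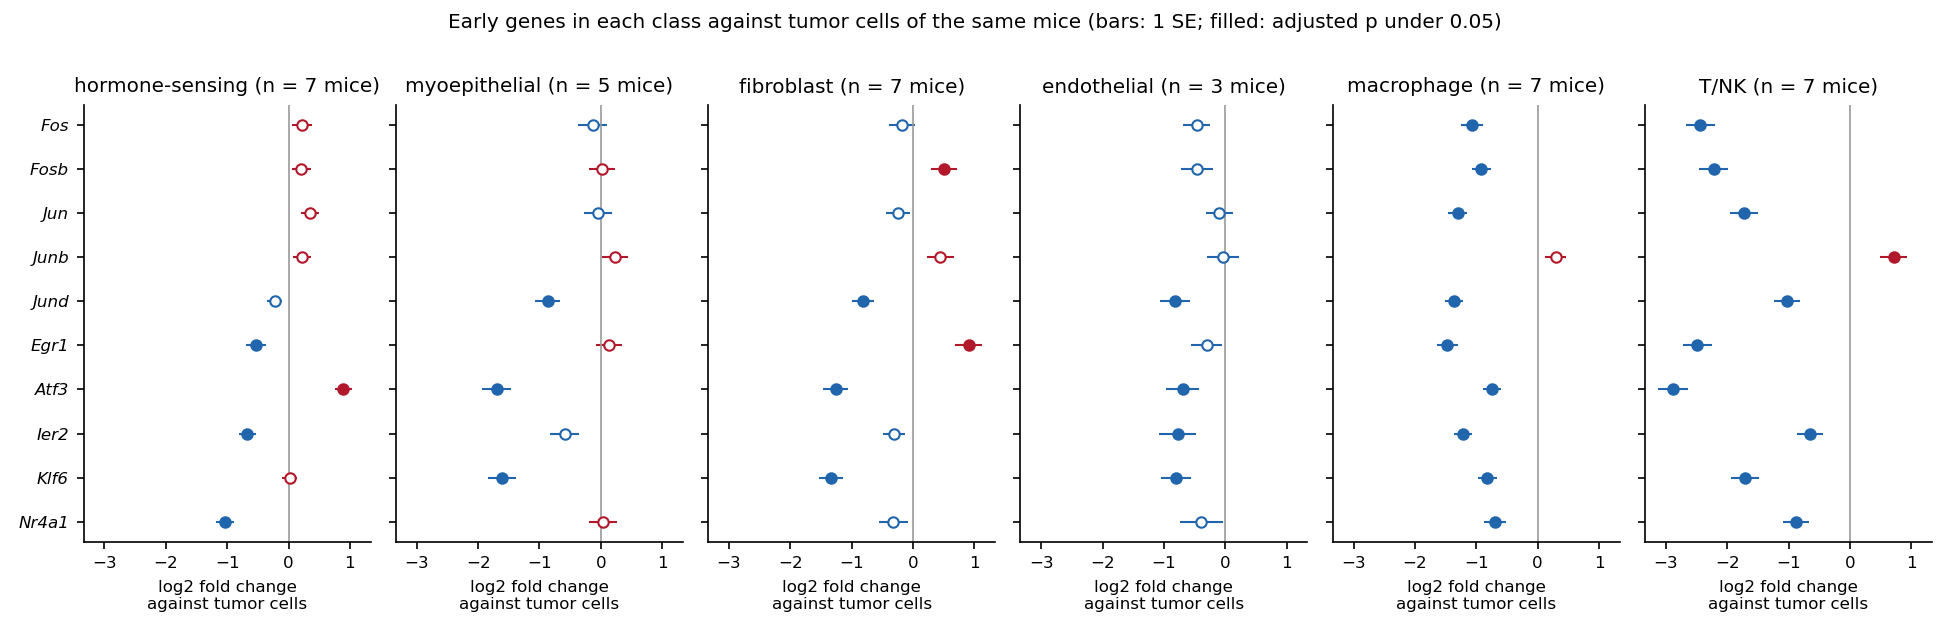
Log2 fold change of each early gene in 6 classes against tumor cells of the same mice (x axis), with bars of 1 SE, filled where the adjusted p of edgeR was under 0.05, red above and blue below 0. T/NK cells and macrophages lie to the left for all members but Junb, and Atf3 lies at 0.90 in hormone-sensing cells and at -2.88 in T/NK cells.

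Fos, the best known AP-1 subunit, was lower in the immune classes than in tumor cells and differed widely between mice. In tumor cells it stood at 3977, 6320, 2013, 6229, 4248, 14557 and 1634 CPM in replicates 1, 2, 3, 4, 5, 7 and 8. Replicate 7 was the highest and replicate 8 the lowest. In hormone-sensing cells Fos was at 3960.0, 7103, 8075, 5209, 4758, 13205 and 2493 CPM in the same order. The 2 epithelial classes overlapped, with hormone-sensing cells higher in 4 of 7 mice, and the log2 fold change of 0.22 ± 0.17 (SE) did not pass (edgeR, adjusted p = 0.36). Replicate 3 was the mouse in which they differed most. The fibroblast values ran from 1343 to 6568 CPM with a median of 3932, the myoepithelial values from 1797 to 7725 with a median of 5463 and the 3 endothelial values from 1319 to 5588. With the main settings Fos passed the test in none of these 3 classes. Macrophages had 1925, 1635, 1522, 2319, 1669, 4838 and 813 CPM, below the tumor cells of the same mouse in 7 of 7 (log2 fold change -1.07 ± 0.18, adjusted p = 5.21e-06). T/NK cells had 934, 717, 111, 1422, 882, 4058 and 345 CPM, again lower in 7 of 7 (-2.44 ± 0.24, adjusted p = 2.20e-22). The replicate 7 immune cells nevertheless exceeded the replicate 3 and replicate 8 tumor cells, so the classes overlapped between mice. In the T/NK fit the SE hardly followed the spread of each gene over mice. It was 0.24 for Fos and 0.23 for Klf6, whose edgeR coefficients of variation over mice in T/NK cells were 0.670 and 0.329. The p-values of that fit, here and below, therefore do not measure the spread of each gene over mice.

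Fosb, a paralog that also pairs with Jun proteins, followed Fos over the mice but not over the classes. Its tumor-cell levels were 1353, 2654, 751, 1746, 1159, 3265 and 674 CPM in replicates 1, 2, 3, 4, 5, 7 and 8. Fibroblasts held 2494, 3105, 1971, 2069, 1978, 1779 and 986 CPM, higher than tumor cells in 6 of 7 mice, replicate 7 being the exception. The log2 fold change of 0.50 ± 0.21 lay at the threshold (adjusted p = 0.049), the groups overlapped, and the call was lost without replicate 1, 3, 4, 5 or 8 (adjusted p = 0.063 to 0.21). It was also lost with DESeq2 (0.075), 9 principal components (0.12), the members kept in the clustering (0.0501), 500 genes per cell (0.22), classes set per cell (0.058), no filter on low counts (0.52), no block for mouse (0.26) and the WT titles alone (0.54), each an adjusted p. Macrophages (306 to 1157 CPM, -0.92 ± 0.16, adjusted p = 7.92e-06) and T/NK cells (86.2 to 1199 CPM, -2.22 ± 0.24, adjusted p = 1.48e-19) were lower in 7 of 7 mice each.

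**Figure D2:**
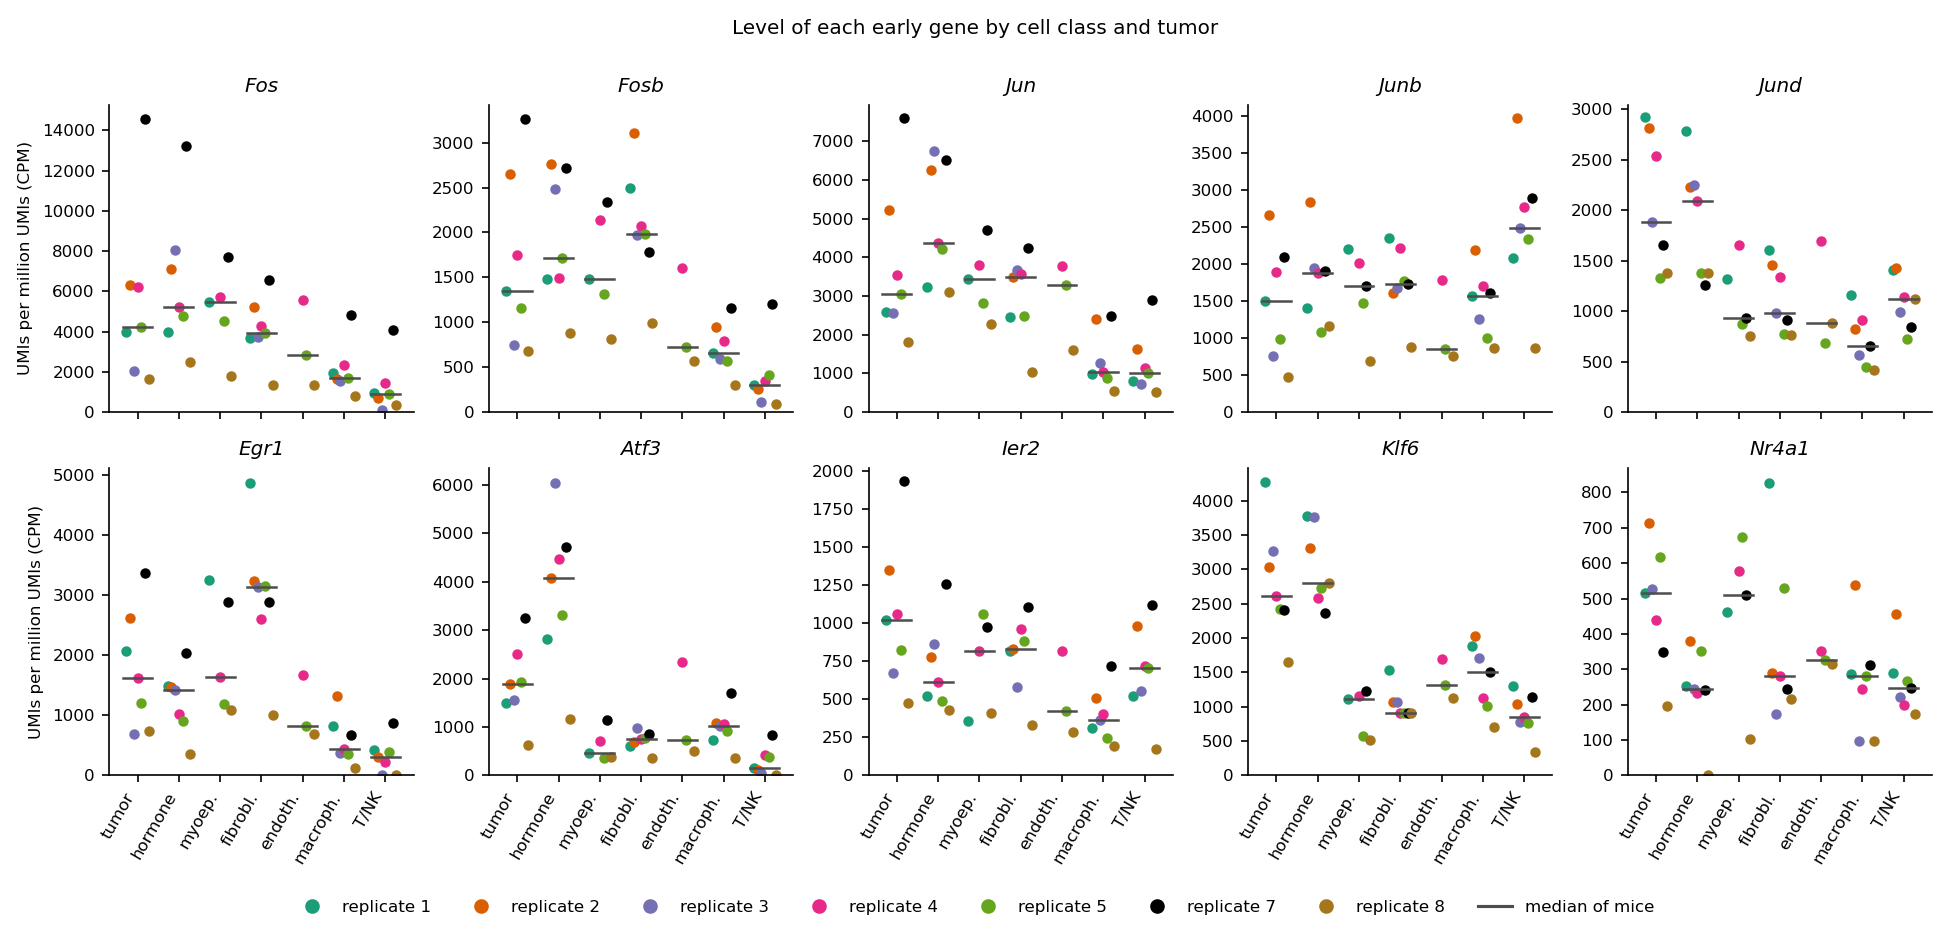
Level of the 10 early genes in counts per 1000000 UMIs (CPM, y axis from 0, own scale per gene) in the 7 cell classes, with 1 point per mouse coloured by replicate and a line at the median of the mice. Replicate 7 (black) stands at the top for Fos in tumor cells at 14557 CPM, Atf3 peaks in hormone-sensing cells and Junb has its highest median, 2488 CPM, in T/NK cells.

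Among the Jun genes, Jun was lower than in tumor cells in both immune classes, Junb was highest in T/NK cells and Jund was highest in the 2 luminal classes, among the 7 classes compared. Jun, the main partner of Fos, was at 2597, 5231, 2573, 3549, 3048, 7597 and 1806 CPM in tumor cells and at 3244, 6251, 6757, 4358, 4224, 6528 and 3110.5 CPM in hormone-sensing cells, in the same order of replicates. Hormone-sensing cells were higher in 6 of 7 mice, but the difference of 0.35 ± 0.14 did not pass (adjusted p = 0.061). It passed at a clustering resolution of 1.0, in the CB titles alone and without replicate 7 (adjusted p = 0.027, 0.040 and 0.014), and was at 0.06 without cells holding markers of another class (adjusted p = 0.83). Jun was lower in macrophages (533 to 2475 CPM, -1.30 ± 0.16, adjusted p = 1.39e-08) and in T/NK cells (517 to 2896 CPM, -1.72 ± 0.23, adjusted p = 5.26e-13).

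Junb, an AP-1 subunit with a prominent role in lymphocytes, was at 2076, 3981, 2488, 2774, 2343, 2889 and 862 CPM in T/NK cells. The tumor cells of the same mice had 1500.0, 2668, 756, 1891, 982, 2090.1 and 470 CPM. T/NK cells were thus higher in 7 of 7 mice, with overlap between mice, by 0.72 ± 0.22 (adjusted p = 0.0027). This call was lost without replicate 1, 2 or 5 (adjusted p = 0.078, 0.071 and 0.052) and within the CB or the WT titles alone (adjusted p = 0.11 and 0.17), with the fold at 0.57 or more in each. It was also lost with at least 500 genes per cell (0.39, adjusted p = 0.12), without the filter on low counts (adjusted p = 0.081) and without the block for mouse (adjusted p = 0.0997). Junb in macrophages ranged from 860 to 2195 CPM and differed from tumor cells by 0.29 ± 0.17 (adjusted p = 0.14), higher in 4 of 7 mice. Without replicate 7 it passed there as higher. In fibroblasts (875 to 2356 CPM) the difference of 0.44 ± 0.22 did not pass either (adjusted p = 0.090), but passed without cells holding markers of another class, without replicate 2, without replicate 7 and with all classes in 1 fit (adjusted p = 0.048, 0.013, 0.026 and 0.046).

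Jund, which is less inducible than the other Jun genes, was highest among the 7 classes in tumor cells at 2922, 2812, 1884, 2538, 1324, 1651 and 1373 CPM and in hormone-sensing cells at 2789, 2231, 2247, 2093, 1379, 1257 and 1377 CPM. These 2 classes did not differ beyond the test (-0.23 ± 0.13, adjusted p = 0.18). The unadjusted p was under 0.05 with DESeq2, with 9 principal components and with the members kept in the clustering. In all mice measured, Jund was lower than in tumor cells in myoepithelial cells (-0.87 ± 0.21, adjusted p = 0.0019), fibroblasts (-0.82 ± 0.18, adjusted p = 0.00042), macrophages (-1.36 ± 0.15, adjusted p = 2.35e-09) and T/NK cells (-1.03 ± 0.22, adjusted p = 9.25e-06). In the WT titles alone the fibroblast call was lost, at an unadjusted p not under 0.05. In myoepithelial cells of those titles only 2 of Atf3, Jund and Klf6 passed. The 3 endothelial values, 688 to 1697 CPM, were lower by -0.82 ± 0.25 (adjusted p = 0.0083). In the myoepithelial cluster, where most cells held markers of another class, the Jund fold was -2.39 with classes set per cell and -1.80 without such cells (adjusted p = 7.62e-08 and 0.084), over 3 and 2 mice in place of 5. The mice were ordered differently from Fos, with replicate 7 among the lower values.

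Egr1, a zinc finger factor induced through the MAP kinase pathway, was highest in fibroblasts. Their levels were 4874, 3231, 3130, 2604, 3155, 2885 and 1009 CPM, beside 2067, 2616, 697, 1626, 1197, 3375 and 738 CPM in tumor cells. Fibroblasts were higher in 6 of 7 mice, replicate 7 being the exception, by 0.91 ± 0.22 (adjusted p = 0.00085). In the WT titles alone this call was lost, at an unadjusted p not under 0.05. Egr1 was lower in hormone-sensing cells (356 to 2035 CPM, -0.53 ± 0.16, adjusted p = 0.0076), in macrophages (119 to 1323 CPM, -1.48 ± 0.17, adjusted p = 5.68e-09) and in T/NK cells (up to 878 CPM, -2.49 ± 0.24, adjusted p = 6.80e-24). The hormone-sensing call was lost without replicate 2 or 4 (adjusted p = 0.074 and 0.070), with DESeq2 (0.051), without the block for mouse (0.31), with all classes in 1 fit (0.098) and in the CB titles alone (-0.34, adjusted p = 0.22). In the T/NK cells of replicates 3 and 8 no Egr1 UMI was counted, which with 18087 and 11600 UMIs in all allows up to 166 and 259 CPM (a count of 3).

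Klf6, a Krüppel-like zinc finger factor, was highest in the 2 luminal epithelial classes. Tumor cells had 4282, 3035, 3267, 2617, 2424, 2407 and 1653 CPM and hormone-sensing cells 3775, 3316, 3759, 2584, 2734, 2365 and 2802 CPM, and the 2 classes did not differ beyond the test (0.02 ± 0.13, adjusted p = 0.94). Fibroblasts had 1529 CPM in replicate 1 and 906 to 1072 in the other mice, below the tumor cells in 7 of 7 with no overlap (-1.34 ± 0.20, adjusted p = 9.28e-07). Myoepithelial cells (511 to 1231 CPM, -1.61 ± 0.22, adjusted p = 2.18e-06) and T/NK cells (345 to 1304 CPM, -1.71 ± 0.23, adjusted p = 3.41e-13) were likewise below tumor cells without overlap. With classes set per cell the myoepithelial fold of Klf6 was -2.77 over 3 mice, and without cells holding markers of another class -2.005 over 2. The fold in macrophages was smaller (704 to 2024 CPM, -0.82 ± 0.16, adjusted p = 3.36e-05).

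Atf3, a stress-induced leucine zipper factor, passed the test as higher in hormone-sensing than in tumor cells. In hormone-sensing cells it stood at 2823, 4071, 6045, 4475, 3321, 4723 and 1163 CPM, and in tumor cells at 1494, 1880, 1552, 2500.1, 1933, 3254 and 623 CPM. Hormone-sensing cells were higher in 7 of 7 mice, by 0.90 ± 0.14 (adjusted p = 1.65e-06), although replicates 1 and 8 fell within the range of the tumor cells. Without cells holding markers of another class the fold was 0.66 ± 0.17 (adjusted p = 0.0011). Atf3 was lower than in tumor cells in myoepithelial cells (353 to 1146 CPM, -1.69 ± 0.24, adjusted p = 2.66e-06, and -2.60 with classes set per cell, over 3 mice), fibroblasts (369 to 985 CPM, -1.26 ± 0.20, adjusted p = 2.63e-06), macrophages (357 to 1699 CPM, -0.75 ± 0.15, adjusted p = 7.01e-05) and T/NK cells (up to 842 CPM, -2.88 ± 0.25, adjusted p = 1.75e-30). In T/NK cells of replicate 8 no Atf3 UMI was counted, which allows up to 259 CPM.

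Ier2, a small nuclear early response protein, was highest in tumor cells among the 7 classes, at 1025, 1349, 671, 1061, 825, 1934 and 477 CPM. In hormone-sensing cells it was at 522, 778, 862, 612, 487, 1257 and 427 CPM, lower in 6 of 7 mice with replicate 3 as the exception (-0.67 ± 0.14, adjusted p = 0.00014). Macrophages (192 to 720.1 CPM, -1.22 ± 0.15, adjusted p = 1.81e-08) and T/NK cells (172 to 1123 CPM, -0.65 ± 0.22, adjusted p = 0.0061) were also lower. The T/NK call was lost without replicate 1 (adjusted p = 0.059), without the block for mouse (0.31) and in the CB or the WT titles alone (0.060 and 0.28). Nr4a1 is an orphan nuclear receptor. Its tumor-cell levels were 517, 714, 526, 438, 617, 348 and 197 CPM and its hormone-sensing levels 253, 379, 245, 232, 352, 243 and 0 CPM, lower in 7 of 7 mice by -1.03 ± 0.15 (adjusted p = 2.14e-07). The value of 0 comes from 42116 UMIs, which allow up to 71.2 CPM. Macrophages (-0.70 ± 0.18, adjusted p = 0.0015) and T/NK cells (-0.88 ± 0.21, adjusted p = 6.89e-05) were lower in 7 of 7 mice as well. Both of these calls were lost in the WT titles alone, each at an unadjusted p not under 0.05.

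The order of the 7 classes, by the mean difference from tumor cells of the same mice on the log2(CPM + 1) scale, differed between the members. Hormone-sensing or tumor cells led for Fos, Jun, Jund, Atf3, Ier2, Klf6 and Nr4a1, fibroblasts for Fosb and Egr1 and T/NK cells for Junb, while T/NK cells or macrophages came last for 8 of the members, tumor cells for Junb and hormone-sensing cells for Nr4a1. Endothelial and myoepithelial places rest on 3 and 5 mice, and endothelial Junb was below tumor cells in 2 of its 3 mice. The last place of hormone-sensing cells for Nr4a1 takes in the 0 CPM of replicate 8, which allows up to 71.2 CPM. Macrophages exceeded them there by 0.87 ± 2.62 (SD, log2), in 5 of 7 mice (exact permutation p = 0.58). Of 60 pairs of neighbouring classes, none passed an exact sign-flip permutation test over mice after adjustment (two-sided, Benjamini-Hochberg) and 8 had an unadjusted p under 0.05. With 7 mice the smallest p possible is 0.0156 and with 3 it is 0.25. Only 24 of the 60 pairs had 7 mice, so the adjustment left little room for any pair to pass. The test therefore cannot show that neighbouring classes were alike. In 7 of 7 mice macrophages exceeded T/NK cells for Fos by 1.302 ± 1.139 (SD, log2), hormone-sensing cells exceeded macrophages for Egr1 by 1.24 ± 0.59, fibroblasts exceeded macrophages for Jun by 1.196 ± 0.451, hormone-sensing cells exceeded tumor cells for Atf3 by 1.01 ± 0.45 and T/NK cells exceeded macrophages for Jund by 0.67 ± 0.40. Each of these had an exact permutation p of 0.0156 (adjusted p = 0.19).

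Barcodes with under 200 genes, which hold free RNA and shallow cells, carried the members too. Fos there was at 896 to 5273 CPM with a median of 2931, and its level in macrophages and in T/NK cells was above that of the same matrix in 0 of 7 mice each. The same held for Fosb and Jun, for Jund and Ier2 in macrophages and for Egr1, Atf3 and Klf6 in T/NK cells. Fos was above it in 7 of 7 mice in hormone-sensing cells and fibroblasts and in 6 of 7 in tumor cells. For Junb, T/NK cells were above it in 7 of 7 mice and macrophages in 3. For Klf6, fibroblasts were above it in 1 of 7 mice and myoepithelial cells in 0 of 5. The part of free RNA in the levels of these members in the immune classes was not tested.

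Per cell, members were common. After each cell was thinned to 300 UMIs, which left out 1749 shallower cells, a Fos UMI was found in 55.8% of 5525 tumor cells (22.0 to 84.6% per mouse), in 65.2% of 1559 hormone-sensing cells, in 38.7% of 2431 macrophages and in 20.7% of 1782 T/NK cells, while a Junb UMI was found in 53.8% of the T/NK cells. Unthinned, Fos was found in 69.0% of tumor and 28.9% of T/NK cells, whose median depths were 685 and 420.0 UMIs. No class of these tumors is known to lack Fos, so no share was available as a background. At 300 UMIs a tumor cell carried UMIs of 3.73 members on average and a hormone-sensing cell 4.13, against 2.15 in macrophages and 1.99 in T/NK cells. The share with 3 or more members was 67.5% in tumor cells and 31.6% in T/NK cells. These averages and shares pool the cells of all mice, and replicate 4 held most of the hormone-sensing cells, so they mix class with mouse.

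The members were then compared between tumor cells with and without a Fos UMI, each thinned to 300 UMIs and summed per mouse, so that the test asks whether other early genes are found in the same cells as Fos. Fos chose the cells and was not tested. In tumor cells 8 of the other 9 members were higher in Fos-positive cells and Nr4a1 did not pass, where 2.43% of 2675 genes passed (1.94% higher, 0.486% lower). Jun was at 1268 to 2284 CPM without and at 4164 to 9136 CPM with Fos, with no overlap, a log2 fold change of 1.75 ± 0.10 (adjusted p = 1.46e-23). Egr1 (326 to 1362 against 1410.3 to 4200.2 CPM, 1.92 ± 0.12, adjusted p = 1.73e-21) and Junb (326 to 1247 against 1292 to 3695 CPM, 1.43 ± 0.11, adjusted p = 3.03e-17) did not overlap either. Fosb (1.57 ± 0.11), Ier2 (1.29 ± 0.12), Atf3 (1.14 ± 0.11) and Jund (0.58 ± 0.10) were higher in 7 of 7 mice with overlapping ranges. Klf6 was higher in 6 of 7 (0.39 ± 0.10, adjusted p = 0.0072), replicate 3 being the exception, and its call was lost without replicate 2, 4 or 7 and with DESeq2 (adjusted p = 0.052, 0.12, 0.11 and 0.16). It was also lost with 500 genes per cell (0.14), without the filter on low counts (0.77) and without the block for mouse (0.998), and without the block so were the calls of Jund (0.998) and Atf3 (0.058), each an adjusted p. Of the 65 genes called, 80.0% were higher with edgeR, and 93.1% of the 29 with DESeq2. Nr4a1 was at a median of 477 CPM both without and with Fos (0.14 ± 0.13, adjusted p = 0.82).

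Feedback genes were higher in the same Fos-positive tumor cells. Of the 15 feedback and RNA-decay genes tested, 10 were higher and 0 lower, with a median log2 fold change of 0.67 beside -0.03 over all genes. They included Socs3, an inhibitor of cytokine signalling (2.05 ± 0.29), the RNA-decay factor Zfp36 (1.87 ± 0.13), the stress sensor Gadd45b (1.21 ± 0.19) and the phosphatase Dusp1 (1.16 ± 0.15). Of 22 other early response genes 7 were higher, among them Klf2 (1.17 ± 0.19), Irf1 (0.83 ± 0.24), Bhlhe40 (0.79 ± 0.17) and Cebpd (0.71 ± 0.13), and of 12 heat shock genes 2, Hspa1a (1.32 ± 0.21) and Hspb1 (0.43 ± 0.12). Among the 10 genes with the smallest p outside the members, 3 milk protein genes were lower, the caseins Csn1s2a (-2.25 ± 0.28) and Csn2 (-1.69 ± 0.22) and the mucin-like Glycam1 (-1.88 ± 0.27). Btg2 (0.93 ± 0.12) and Nfkbia (0.65 ± 0.10) were higher. Before thinning, the median depth was 844.5 UMIs in the positive and 731 in the negative cells, and replicate 7 held 787 of 3084 positive but 143 of 2441 negative cells.

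The split was repeated within each tumor cluster, an alternative added after the data were seen. In the cluster led by Saa1 and Saa2, 8 of 9 members were higher (Jun 1.84, Egr1 1.81), beside 4.76% of 630 genes called, and in that led by Thrsp and Emid1 7 of 9 (Jun 1.41, Egr1 1.62), beside 1.62% of 1359 genes, over 7 and 6 mice. The clusters led by Edn1 and by Ifit3 gave 4 of 8 and 6 of 8, beside 2.65% of 226 and 3.74% of 214 genes, over 5 and 6 mice. Jun, Egr1, Fosb and Atf3 passed in all 4 clusters. Klf6 passed in the first of them alone and was at -0.08 in the cluster led by Edn1 (adjusted p = 0.98).

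In macrophages, 6 of the other 9 members were higher in Fos-positive cells, where 2.67% of 937 genes passed (2.24% higher). Jun was at 368 to 1941 CPM without and 1170 to 6026 CPM with Fos (1.55 ± 0.14, adjusted p = 3.67e-09), with Egr1 (1.74 ± 0.21), Fosb (1.45 ± 0.17), Atf3 (1.19 ± 0.15), Junb (0.74 ± 0.13) and Jund (0.60 ± 0.16) higher in 7 of 7 mice. The Jund call was lost without replicate 1, 2, 3, 4 or 7 (adjusted p = 0.051 to 0.092) and with DESeq2 (adjusted p = 0.080). With 500 genes per cell Egr1, Fosb and Jund did not pass (adjusted p = 0.058, 0.10 and 0.45), without the filter on low counts Junb and Jund did not (0.994 each), and without the block for mouse Atf3, Junb and Jund did not (0.062, 0.30 and 0.60). Ier2 (0.67 ± 0.22, adjusted p = 0.11), Klf6 (0.41 ± 0.14, adjusted p = 0.11) and Nr4a1 (0.67 ± 0.28, adjusted p = 0.30) did not pass. Klf6 and Nr4a1 passed at a clustering resolution of 1.0 (adjusted p = 0.046 and 0.039), Klf6 without thinning (0.048) and Ier2 without replicate 8 (0.049), so that 8, 7 and 7 of the 9 passed there, beside 4.94, 1.69 and 3.80% of all genes. Dusp1 (1.15 ± 0.16), Zfp36 (0.94 ± 0.15) and Ier5 (1.03 ± 0.18) were higher, as were the chemokines Ccl3 (0.92 ± 0.18) and Ccl4 (0.63 ± 0.12), the signalling regulator Rgs2 (0.75 ± 0.14), Btg2 (0.79 ± 0.18) and Klf4 (0.79 ± 0.18), and the lysosomal protease Ctsd was lower (-0.86 ± 0.15). Median depths were 573 and 578 UMIs in positive and negative cells. The levels of Fos, Fosb and Jun in all macrophages lay below those of the barcodes outside the cells, and the part of free RNA in this split was not tested.

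**Figure D3:**
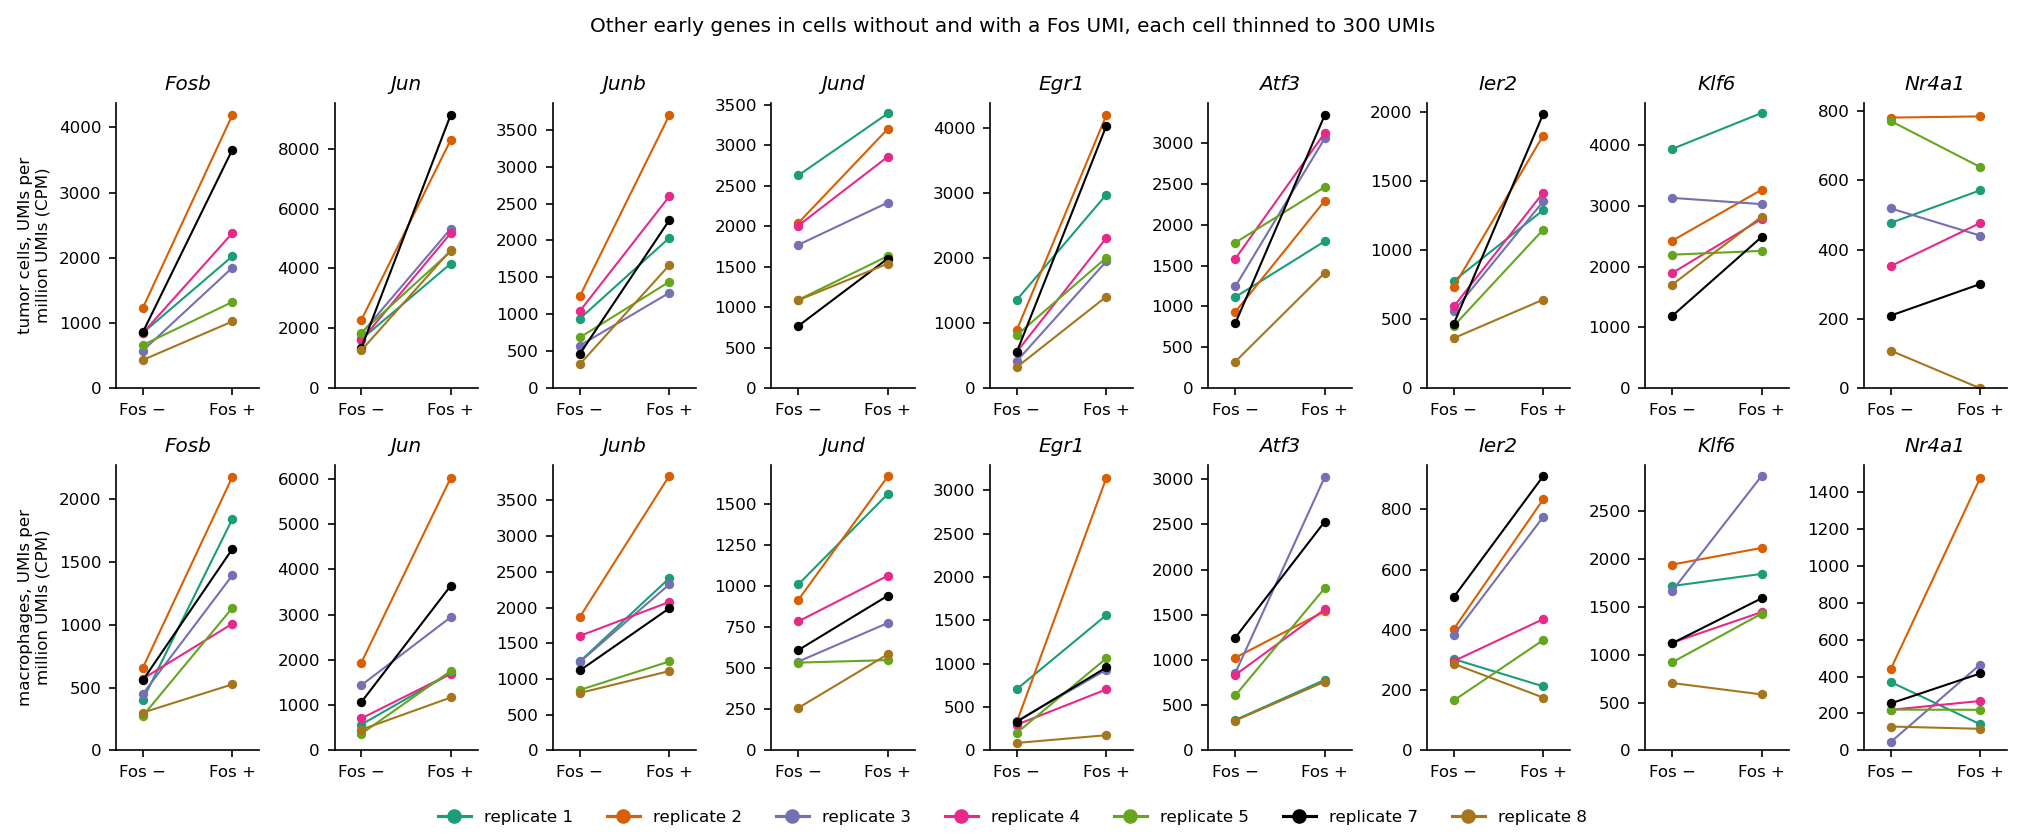
Level of the other 9 early genes (CPM, y axis from 0, own scale per gene) in cells without and with a Fos UMI, thinned to 300 UMIs, for tumor cells (top) and macrophages (bottom), with 1 line per mouse. In tumor cells the lines rise in 7 of 7 mice for all but Klf6 (6 of 7) and Nr4a1 (4 of 7).

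Within the tumor class the clusters held different levels of the members. Fos had a median over mice of 5765 CPM in the cluster led by Saa1, Saa2 and Spp1 (2559 cells), 3688 in the cluster led by Thrsp, Emid1 and Lalba (2384 cells), 3539 in that led by Edn1 and Csn1s1 (679 cells) and 6832 in that led by the interferon-induced Ifit3 and Rsad2 (547 cells). In the same order Fosb was at 2364, 765, 1111 and 1779 CPM and Egr1 at 1957, 1179, 1111 and 2579 CPM. The ranges over mice overlapped for each of these genes. The levels are a description, since these clusters were made from the same cells.

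The summed level of the members differed between tumors. It was 2.17, 2.93, 1.47, 2.42, 1.78, 4.05 and 0.964% of all UMIs of tumor cells in replicates 1, 2, 3, 4, 5, 7 and 8, and 1.03, 1.35, 0.875, 1.003, 0.738, 1.57 and 0.440% in macrophages. Replicate 7 was the highest and replicate 8 the lowest in both. Their matrices were the ones that held mitochondrial genes (26 and 27, removed here, beside 0 in the others). Replicate 8 had the lowest share of UMIs in cells (71.3%) and replicate 7 the highest median depth (694 UMIs), and the part of these differences was not tested. Over the 70 sets of a member and a class, replicate 8 was the lowest in 57 and replicate 7 the highest in 28 of the 60 in which it was measured. In hormone-sensing cells replicate 3 (3.38%) came next to replicate 7 (3.62%), whereas in tumor cells it was among the lower mice.

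**Figure D4:**
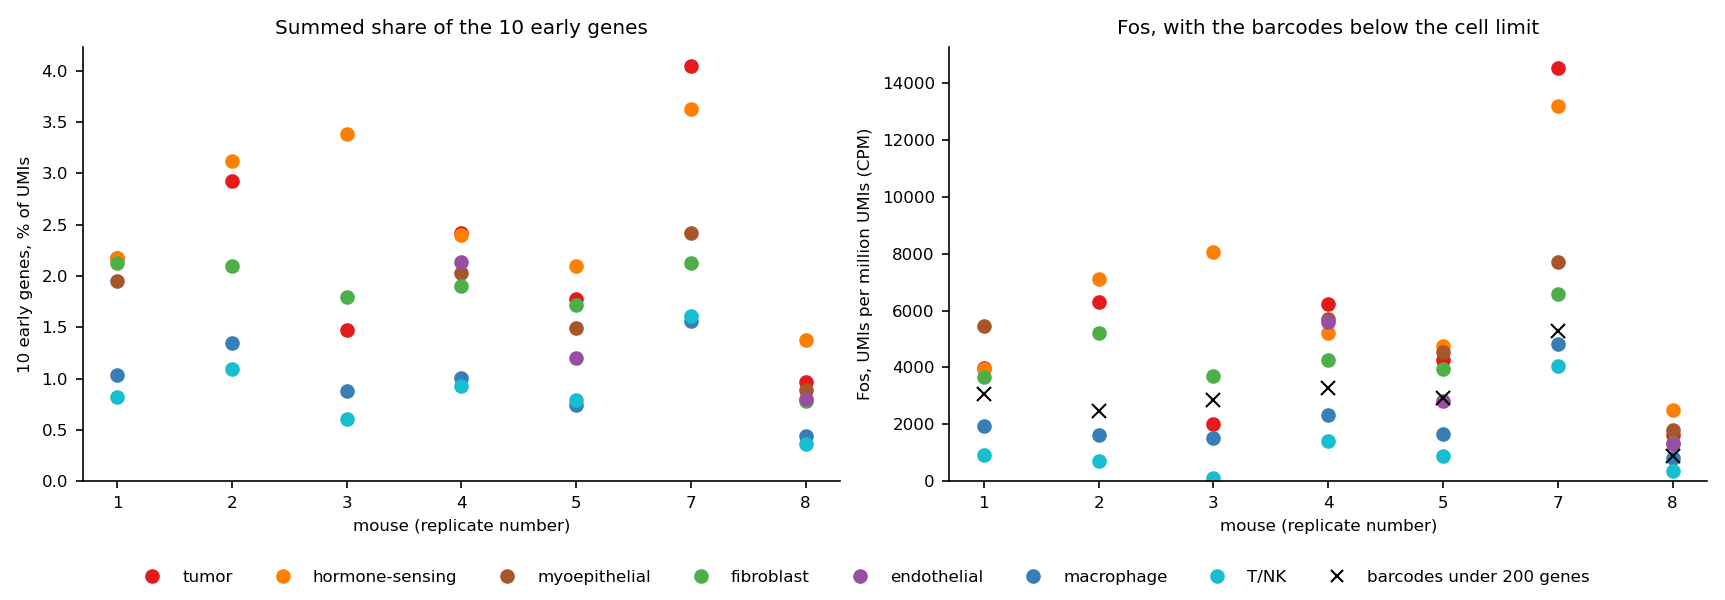
Left, the summed share of the 10 early genes in % of all UMIs by mouse, with 1 point per cell class. Right, Fos in CPM by mouse and class, with crosses for barcodes under 200 genes. Points of replicate 7 stand highest and those of replicate 8 lowest in most classes, and the crosses lie above the macrophage and T/NK points in 7 of 7 mice.

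The members' spread over mice was compared in tumor cells. The biological coefficient of variation of edgeR was 0.559 for Fos, 0.472 for Fosb, 0.469 for Egr1 and Junb, 0.424 for Jun, 0.410 for Atf3 and 0.389 for Ier2. It was 0.342 for Nr4a1, 0.337 for Jund and 0.319 for Klf6, beside a median of 0.231 over 6319 genes. The trend of edgeR at the abundance of each gene was 0.345 for Fos, 0.331 for Fosb, 0.334 for Jund, 0.338 for Klf6 and 0.299 for Nr4a1, so that Klf6 lay below its trend and Jund close to it. A higher value than Fos was found in 0.965% of those genes, against 10.4% for Jund and 12.8% for Klf6. Without replicate 7 the value of Fos was 0.419, below that of Junb at 0.454, and 2.44% of genes were higher, and without replicate 8 it was 0.503, with 1.74% higher. The lowest value among the members was that of Nr4a1 without replicate 2 or 8 (0.330 and 0.275) and that of Jund without replicate 5 (0.323). In T/NK cells Fos reached 0.670, with 0.213% of 1409 genes higher, and in macrophages Egr1 was the most variable member at 0.518. In fibroblasts the values were closer to the median of 0.265, from 0.279 for Klf6 to 0.383 for Nr4a1. These are descriptions of mice of 1 group.

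A mouse high for a member in tumor cells tended to be high in its other classes. Over 7 mice, Pearson's r of log2(CPM + 1) between tumor cells and hormone-sensing cells, fibroblasts, macrophages or T/NK cells was above 0 in 40 of 40 relations, with a median of 0.835. Over all genes at a mean of 50 CPM or more in both classes r was above 0 in 77.4% of 9662 relations, with a median of 0.417, and 19.3% had an unadjusted p under 0.05, beside 26 of the 40 for the members. These genes were not matched to the members in abundance, and the members mostly lay well above 50 CPM. The part of abundance in the gap was not tested. In 21 relations the adjusted p of the exact permutation test was under 0.05 for r, and in 11 for Spearman's rho. Jun in T/NK cells gave r = 0.995 (p = 0.000198, adjusted p = 0.0079) and rho = 1, and r = 0.988 without replicates 2 and 7, the mice farthest from the median. Jund in fibroblasts gave r = 0.995 (p = 0.000397, adjusted p = 0.0079) and rho = 0.964 (adjusted p = 0.028), and 0.993 without replicates 1 and 2. Fos in macrophages gave r = 0.905 (p = 0.0069, adjusted p = 0.020) and rho = 0.75 (adjusted p = 0.11), and 0.577 without replicates 7 and 8. In hormone-sensing cells Fos gave r = 0.689 (p = 0.084) and rho = 0.643 (p = 0.14), and -0.34 without replicates 7 and 8, so that relation rests on those mice. Without the 2 farthest mice r stayed above 0 in 35 of 40 relations, with a median of 0.707. Macrophages had the highest median r, 0.910, and 9 of 10 members with an adjusted p under 0.05, and hormone-sensing cells the lowest median, 0.701, with 1 of 10. Over all genes macrophages also had the highest median r, 0.520, beside 0.467 in hormone-sensing cells, 0.340 in fibroblasts and 0.339 in T/NK cells. An unadjusted p under 0.05 was found for 3, 5, 9 and 9 members in hormone-sensing cells, fibroblasts, macrophages and T/NK cells, beside 22.2, 12.9, 23.3 and 18.2% of all genes, so that the hormone-sensing share was near that of all genes. Free RNA is shared by the classes of a mouse. No value was taken within the title series, which hold 4 and 3 mice. Jund did not overlap between these series in tumor cells or in fibroblasts.

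**Figure D5:**
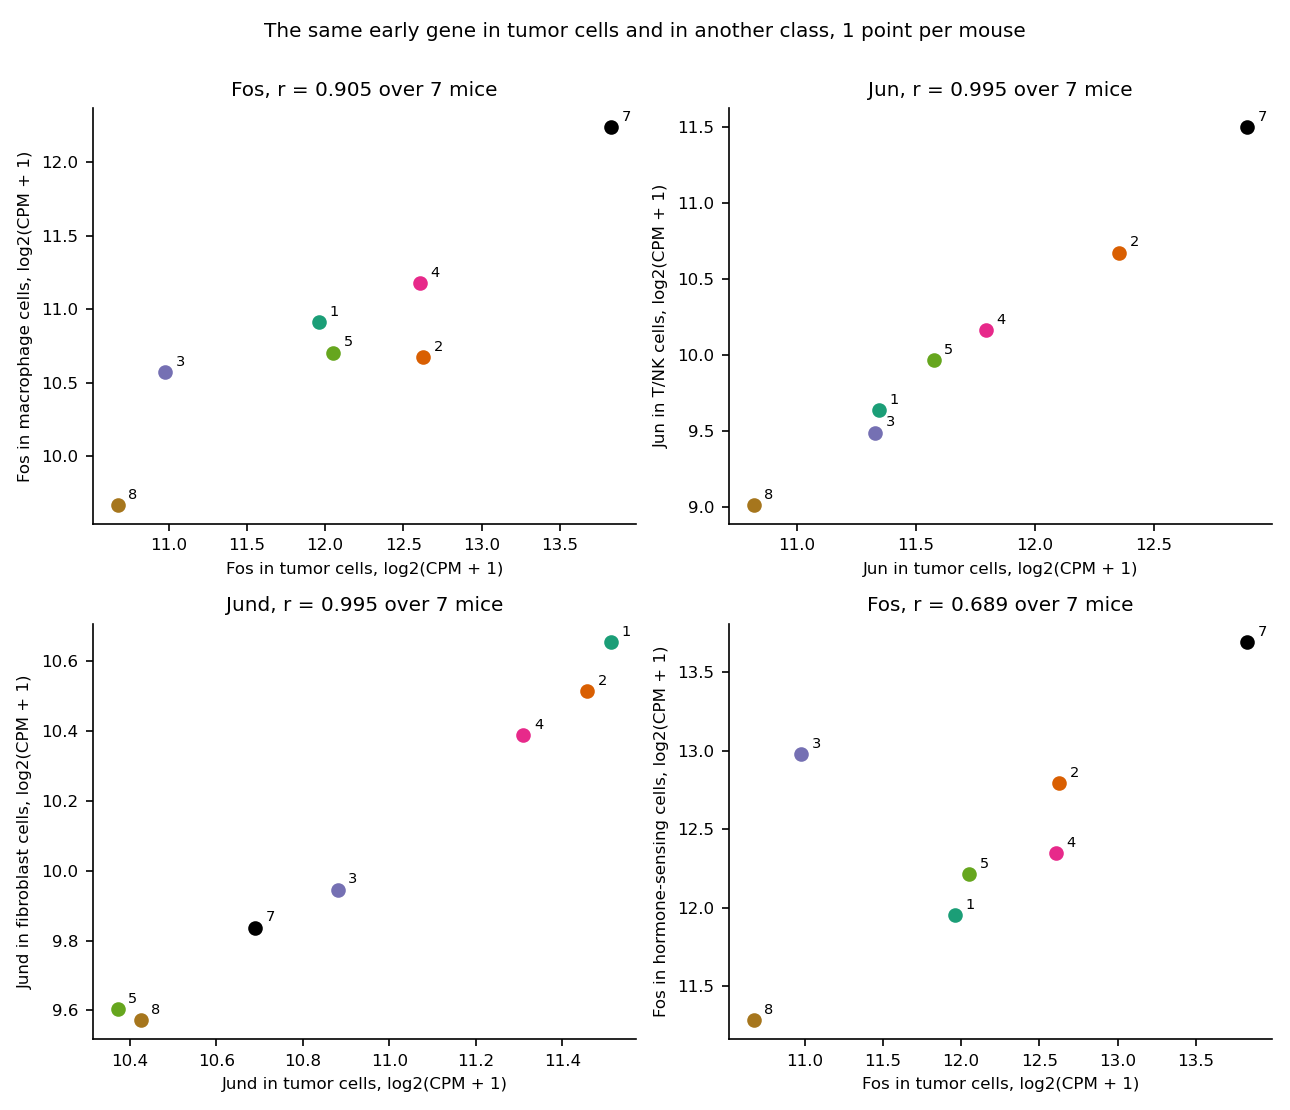
The same early gene in tumor cells (x axis) and in another class (y axis), both log2(CPM + 1), with 1 numbered point per mouse, for 4 relations picked after their values were seen. Jun in T/NK cells (r = 0.995) and Jund in fibroblasts (r = 0.995) keep nearly the same order of mice, and replicate 3 departs from it for Fos in hormone-sensing cells (r = 0.689).

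The order of mice was not the same for all members. Over the 43 sums of a mouse and class, centred within each class, the correlation with Fos was 0.911 for Fosb, 0.816 for Jun, 0.793 for Egr1, 0.772 for Atf3 and 0.754 for Ier2. It was 0.629 for Junb, 0.387 for Klf6, 0.353 for Nr4a1 and 0.208 for Jund. Outside the members, the 5 genes most like Fos among 3552 were Zfp36 (0.882), Oasl2 (0.775), Gm3511 (0.769), Lgals9 (0.741) and Xaf1 (0.736). Those most like Jund were Arglu1 (0.794), Aes (0.709), Gm43333 (0.705), Alyref (0.691) and Cebpb (0.648). Sums of the same mouse share library and free RNA, and these values are a description.

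The titles were compared last, since they are the only labelled split of the mice. In tumor cells 0 of the 10 members differed between the WT and the CB titles with edgeR or with DESeq2, where 0% of 9242 genes passed with edgeR (452 at an unadjusted p under 0.05) and 7 genes with DESeq2. Jund and Klf6 had an unadjusted p under 0.05 with both tools. In the other 5 classes tested 0 of 10 members passed with edgeR as well, beside 0.0533% of 3752 genes in T/NK cells (0.0267% in each direction) and 0% of genes in the others. At an unadjusted p under 0.05 were Jund in hormone-sensing cells, fibroblasts and macrophages, lower in the WT titles, and Fosb in T/NK cells, higher in them. Of genes at a mean of 50 CPM or more, 6.51% in tumor, 9.15% in hormone-sensing, 17% in myoepithelial, 5.23% in fibroblast, 5.77% in macrophage and 5.07% in T/NK cells did not overlap between the titles, beside 2, 1, 2, 1, 0 and 0 of the 10 members. Jund was at 1884 to 2922 CPM in the 4 CB mice and 1324 to 1651 CPM in the 3 WT mice, without overlap (-0.85 ± 0.26, adjusted p = 0.96 with edgeR). It did not overlap either in hormone-sensing cells (2093 to 2789 against 1257 to 1379 CPM), fibroblasts (985 to 1609 against 760.2 to 914 CPM) and myoepithelial cells (1319 to 1660.0 in 2 mice against 756 to 934 CPM in 3). Junb in myoepithelial cells (2018.5 to 2198 against 694 to 1698 CPM) did not overlap either. Klf6 did not overlap in tumor cells (2617 to 4282 against 1653 to 2424 CPM, -0.66 ± 0.29, adjusted p = 0.96 with edgeR). The members that varied most between mice, such as Fos (0.53 ± 0.63, adjusted p = 0.99), overlapped between the series.

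Of other early response genes, the counts below stand beside the shares of all genes called. In hormone-sensing cells 20 of 30 were lower than in tumor cells and 4 higher (16.2% and 14.6% of all genes), with a median log2 fold change of -0.84 beside -0.04 over all genes, among them the matrix protein gene Ctgf (-3.54 ± 0.54), Egr3 (-3.20 ± 0.35), Nr4a2 (-2.66 ± 0.22) and Cebpb (-2.63 ± 0.19). In fibroblasts 11 of 29 were higher and 3 lower (23.5% and 24.3% of all genes), led by the prostaglandin synthase Ptgs2 (3.45 ± 0.36), Ctgf (3.01 ± 0.35), Egr2 (1.87 ± 0.27) and Klf2 (1.67 ± 0.20). In macrophages 13 of 29 were lower and 6 higher (28.7% and 23.4% of all genes), and in T/NK cells 18 of 26 were lower and 6 higher (30% and 25%), with Cyr61 (-4.25 ± 0.24 and -3.65 ± 0.26) and Fosl1 (-3.41 ± 0.38 and -3.52 ± 0.44) among those lower in both. In myoepithelial cells 3 of 27 were higher, led by Arc (3.98 ± 0.51) and Ctgf (3.66 ± 0.42), and 5 lower (13.9% and 11.7% of all genes), and in endothelial cells 3 of 20 were higher, led by Klf2 (2.38 ± 0.33), and 3 lower (17% and 13.2%).

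Feedback and RNA-decay genes, and heat shock genes, are to be read against the same shares of all genes, which were 14.6% higher and 16.2% lower in hormone-sensing, 13.9% and 11.7% in myoepithelial, 23.5% and 24.3% in fibroblast, 17% and 13.2% in endothelial, 23.4% and 28.7% in macrophage and 25% and 30% in T/NK cells. In macrophages 13 of 21 were higher and 7 lower, with the MAP kinase phosphatase Dusp2 (5.76 ± 0.28), Tnfaip3, an inhibitor of NF-kappaB signalling (3.06 ± 0.22), and Socs3 (2.24 ± 0.21) among the higher. In T/NK cells 9 of 21 were higher, led by Dusp2 (7.75 ± 0.29) and Tnfaip3 (3.51 ± 0.21), and 8 lower. In fibroblasts 9 of 19 were higher and 5 lower, in endothelial cells 6 of 16 and 4, in hormone-sensing cells 5 of 20 and 8, and in myoepithelial cells 2 of 16 and 3. Dusp5 was lower in hormone-sensing (-2.68 ± 0.18), myoepithelial (-1.96 ± 0.28), fibroblast (-2.98 ± 0.27) and endothelial cells (-2.13 ± 0.44). In the same 4 classes Socs3 was higher (1.88 ± 0.20, 1.96 ± 0.29, 2.80 ± 0.23 and 2.33 ± 0.38), as were Dusp10 (2.22 ± 0.23) and Dusp4 (1.80 ± 0.23) in hormone-sensing cells. Among 16 heat shock genes, 9 were lower and 2 higher in macrophages, with Hspb1 at -4.17 ± 0.26 and Hspa1a at 1.27 ± 0.19, and 4 were lower and 3 higher in T/NK cells. In hormone-sensing cells 5 of 16 were lower and 2 higher, in fibroblasts 4 of 15 and 1, in myoepithelial cells 3 of 14 and 2, and in endothelial cells 1 of 12 in each direction, so that several of these counts lay near the shares of all genes.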

How the data were processed

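Droplet libraries (Drop-seq, 1 per tumor) were sequenced and processed by the authors, who per the study's methods used mm10 plus PyMT as the reference. The submitters' processing notes name STAR and FastQC, and also hg19, which is at odds with the mouse symbols. Versions and annotation are not given in the sources used here. The deposited values are counts of UMIs per gene and barcode, with no normalization. Barcodes with 200 to 6000 genes were clustered with Seurat 5.3.0 (20 principal components, resolution 0.6) without the members, and clusters were named from fixed marker lists. No doublet caller was run, and cells with at least 2 markers of another class were left out as an alternative. The members and gene lists were chosen with earlier results of these data known.

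UMIs were summed per mouse and class (at least 10 cells) and compared with edgeR 4.0.16 (TMM, filterByExpr, quasi-likelihood test, Benjamini-Hochberg over all genes tested, threshold 0.05), with the mouse as a block because both sums came from 1 tumor. Levels are CPM of 3′ UMI counts, not scaled by length, and were therefore compared within a gene. The summed share of the members is the exception, and the more abundant members weigh more in it. The text names all members and the 5 nearest patterns, and takes other names from the 4 called genes with the largest fold per context list and comparison and the 10 leading genes of each Fos split, not all of which are printed; genes named beyond these were chosen after their values were seen. A leading gene of the macrophage split is not reported here. DESeq2 1.42.0, other clusterings and filters, each title series and each mouse left out were tried. Libraries held 962677 to 4471473 UMIs in cells. On simulated sums of hormone-sensing and tumor cells (9671 genes), 61 of 66 genes changed 4-fold and 41 of 67 changed 2-fold were recovered, the most of any class at both sizes. For endothelial cells (2075 genes) it was 41 of 66 and 9 of 67, and for myoepithelial cells (3497 genes) 54 of 66 and 22 of 67. The simulation gave all genes a single fixed spread and all mice the same profile. That spread was below the coefficients of variation of the members in tumor cells (0.319 to 0.559), so the recovery is not that of the members. Mice are separate animals. Floors at a count of 3 cover counting error only. The SE of a fold is the fold over the square root of the F statistic of its test. It is not the SE of values over mice.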

Additional observations from a re-analysis of the deposited data

Results flagged for a closer look

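Of 60 sets of a member and a class with 4 or more mice, 7 held a mouse far from the others by Dixon's criterion, and chance flags about 1 in 20 groups. Replicate 7 was the high mouse in 4 of them. Fos stood at 14557 CPM in its tumor cells, beside 1634 to 6320 in the other mice, at 4838 CPM in its macrophages, beside 813 to 2319, and at 4058 CPM in its T/NK cells, beside 111 to 1422. Fosb stood at 1199 CPM in the same T/NK cells, beside 86.2 to 413. Klf6 was at 1529 CPM in fibroblasts of replicate 1, beside 906 to 1072 in the others, and Nr4a1 at 457 CPM in T/NK cells of replicate 2, beside 172 to 288. Nr4a1 was at 0 CPM in hormone-sensing cells of replicate 8, beside 232 to 379, from 39 cells.

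The clusters of B/plasma cells and of erythroid cells entered no comparison and held UMIs of all 10 members, over 4 mice each. In B/plasma cells the medians were 1320.2 CPM for Fos, 533 for Fosb, 1298 for Jun, 1843 for Junb, 2053 for Jund, 639 for Egr1, 259 for Atf3, 655 for Ier2, 1027 for Klf6 and 629 for Nr4a1. In the erythroid cluster, whose leading genes include PYMT, they were 4294 CPM for Fos, 1055 for Fosb, 2755 for Jun, 1501 for Junb, 1837 for Jund, 1522 for Egr1, 1486 for Atf3, 1202 for Ier2, 2243 for Klf6 and 398 for Nr4a1. A count of 3 corresponds to 13.7 and 9.45 CPM in these clusters. The part of free RNA in these values was not tested.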

How the results depend on the processing

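Over all alternatives, the 10 members gave 1526 values, of which 1314 stayed in direction and on their side of the threshold. Of 881 values for members that passed, 97 no longer did, 1 changed sign and 0 passed in the opposite direction, and of 645 values for members that did not pass, 37 passed under an alternative. The causes were not tested. Without cells holding markers of another class, 7 members passed in endothelial and 7 in fibroblast cells, and 102 genes (2.05% of those tested) in myoepithelial, 1958 (54.3%) in fibroblast and 425 (35.2%) in endothelial cells and 1 gene between the titles. Without a filter on low counts, 5 members passed in myoepithelial and 7 in endothelial cells, with 1556 genes (5.91% of 26340) in myoepithelial and 996 (4.31% of 23113) in endothelial cells, 199 between the titles, and 41 and 9 in the Fos splits of tumor cells and macrophages. With DESeq2, 0 members and 466 genes (19.4% of those tested) passed in endothelial cells, 7 genes between the titles, and 29 and 16 genes in the Fos splits. With at least 500 genes per cell, 2 members passed in endothelial cells, beside 22.3% of 2819 genes, and 3 in the macrophage split. The genes passing were 3104 (47.8%) in macrophages, and 38 (2.76%) and 15 (4.23%) in the splits of tumor cells and macrophages. In the WT titles alone, 2 members passed in fibroblasts, 0 in endothelial and 6 in T/NK cells. The genes passing were 625 (16.9%), 274 (11.2%), 1758 (31.6%), 232 (11.8%), 2432 (42.4%) and 1857 (35.2%) in hormone-sensing, myoepithelial, fibroblast, endothelial, macrophage and T/NK cells. With all classes in 1 fit, 2010 genes passed in hormone-sensing, 1696 in myoepithelial and 1324 in endothelial cells, and with classes set per cell 587 in myoepithelial cells. Within tumor clusters alone the Fos split gave 30, 22, 6 and 8 genes, and 4 members in the cluster led by Edn1. Among members that passed, and beside the myoepithelial values given with the genes, folds moved by over 1.5 times with classes per cell and without cells holding other markers for Atf3 in endothelial cells (-1.39 and -1.51, from -0.70), Klf6 in endothelial cells (-1.43 and -1.82, from -0.80), and Atf3 (-3.95 and -3.91), Egr1 (-3.37 and -3.45), Fos (-3.22 and -3.23) and Fosb (-3.04 and -3.01) in T/NK cells. So did Jun in T/NK cells (-2.38) and Fosb in the macrophage split (0.85, adjusted p = 0.10) with 500 genes per cell, and Atf3 (-2.24) and Fosb (-1.59) in T/NK cells of the WT titles. With 9 principal components 13 neighbouring pairs of classes passed, beside 0 of 60. No cluster was named myoepithelial or endothelial there, so fewer pairs were tested and the 2 counts are not of the same tests.

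The 2 sums of a pair came from the same mouse, so the mouse block was the main design. Without the replicate block, 2 members passed in hormone-sensing and 0 in endothelial cells, and 5 and 3 in the Fos splits of tumor cells and macrophages. The genes passing were then 1609 (21.7% of those tested) in hormone-sensing, 412 (16.6%) in myoepithelial, 1874 (43.4%) in fibroblast, 369 (20.1%) in endothelial, 2980 (46.3%) in macrophage and 2084 (44.0%) in T/NK cells. They were 8 (0.538%) and 5 (0.947%) in the splits. The share of members in hormone-sensing cells was thus near that of all genes. Jun in endothelial cells turned to 0.027. The titles hold different mice, and no paired analysis was possible because no mouse has both.

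Changes of sign concerned members that did not pass, except Klf6 in the Fos split at -0.081 within the cluster led by Edn1. In hormone-sensing cells Klf6 was at -0.031 with 9 principal components, -0.025 with the members kept in the clustering, -0.13 with classes per cell, -0.30 without cells holding other markers, -0.11 without the filter and -0.047 in the CB titles. Fos, Fosb and Junb there were at -0.12, -0.090 and -0.011 with classes per cell, and Fosb and Junb at -0.067 and -0.037 without cells holding other markers. In myoepithelial cells Egr1, Fosb, Junb and Nr4a1 were at -0.61, -0.80, -0.27 and -1.17 with classes per cell, at -0.76, -0.75, -0.57 and -0.39 without cells holding other markers, and at -0.29, -0.41, -0.19 and -0.41 without the filter. Nr4a1 there was at -0.045 with the members kept in the clustering, -0.49 with 500 genes, -0.043 with 20 cells, -0.039 in the WT titles and -0.16 in 1 fit. Fosb was at -0.045, -0.087 and -0.084 with 500 genes, in the WT titles and in 1 fit. Jun was at 0.10 in the CB titles, 0.0066 at resolution 1.0, 0.088 with 500 genes and 0.15 with 20 cells, and Fos at 0.020 in the CB titles and 0.11 with 20 cells. In the WT titles Nr4a1 in fibroblasts was at 0.012 and Junb in endothelial cells at 0.17, and with DESeq2 the latter was at 0.0011. Between the titles Egr1 and Fosb were at -0.036 and -0.054 at resolution 1.0, and Egr1 at -0.00064 with DESeq2.

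With each mouse left out in turn, 0 to 4 members passed in endothelial cells, beside 10.8 to 22.65% of all genes. The genes passing ranged from 1907 to 3093 in hormone-sensing cells, fewest without replicate 4, from 522 to 1447 in myoepithelial cells, fewest without replicate 4, from 232 to 734 in endothelial cells and from 15 to 33 in the macrophage split. In hormone-sensing cells Fos ranged from -0.073 to 0.32, Fosb from -0.053 to 0.31 and Klf6 from -0.063 to 0.046. In myoepithelial cells Egr1 ranged from -0.28 to 0.27, Fos from -0.52 to 0.11, Fosb from -0.36 to 0.19, Jun from -0.47 to 0.15, Junb from -0.16 to 0.40 and Nr4a1 from -0.16 to 0.064. In endothelial cells Junb ranged from -0.50 to 0.17 and Nr4a1 from -0.97 to 0.014. Between the titles Atf3 ranged from -0.61 to 0.44, Egr1 from -0.92 to 0.37, Fos from -0.72 to 1.0005, Fosb from -0.89 to 0.42, Ier2 from -0.72 to 0.40 and Jun from -0.60 to 0.58. Of 66 genes changed 4-fold in sums simulated with the fixed spread, 41 were recovered in endothelial cells and 52 to 61 in the other classes.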
